A study of Mus musculus with 6 samples.

Results

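Kidney damage is commonly read from a mix of secreted injury proteins and markers of repairing epithelium, and 10 such genes were followed here in DBA-positive kidney cells: *Lcn2*, *Havcr1*, *Spp1*, *Clu*, *Vcam1*, *Sox9*, *Sox4*, *Cd24a*, *Vim* and *Prom1*. They were chosen by symbol, with earlier results of these data known. All 10 were found among the 55367 gene symbols listed for each library. DBA is a lectin that binds collecting duct epithelium, and the cells were pulled down with it from digested kidneys and sequenced as polyA RNA at Day115. The WT group had the genotype WT and received saline. The ADPKD group had the genotype Pkd1-/- and received saline. The ADPKD+MMPP group had the genotype Pkd1-/- and received mmpp, nanoparticles of melanin chelating manganese with PVP and PEG on the surface, given intravenously. Each of the 3 groups had 2 libraries. The mutants were Pkd1fl/fl;Cre/Esr1+ males in which tamoxifen, given before treatment began, deleted *Pkd1*, so both mutant groups had Cre and tamoxifen. The promoter of the Cre transgene, whether the WT animals carried Cre, and the number of mice behind a library are not given in the sources used here. No label states that the libraries of a group came from separate animals, so the p-values measure only the spread between these libraries, which may be technical.

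A damaged kidney tubule loses its mature transport functions and switches on a stress programme. Injured cells secrete lipocalin, osteopontin and clusterin and display the scavenger receptor KIM-1, the product of *Havcr1*. Surviving cells then pass through a dedifferentiated state with SOX9, SOX4, vimentin and the surface proteins CD24 and CD133, and cells that do not complete repair keep VCAM1. KIM-1 belongs to the proximal tubule, and lipocalin after injury comes mainly from the distal nephron and collecting duct. In cystic kidney disease the epithelium lining the cysts is known to express several of these genes.

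Of the 10 genes, 6 had an entry in the RefSeq promoter table for GRCm38.p6, namely *Lcn2*, *Havcr1*, *Spp1*, *Sox4*, *Vim* and *Prom1*. Shown here, because they rose most in ADPKD among these 6, are the 250 bases before the first listed start of *Lcn2* (chr2:32387740-32387989, minus strand), *Havcr1* (chr11:46739973-46740222, plus strand), *Spp1* (chr5:104434861-104435110, plus strand) and *Prom1* (chr5:44101737-44101986, minus strand), each written 5′ to 3′ on the gene's strand, with motif matches on either strand in capitals.
Lcn2: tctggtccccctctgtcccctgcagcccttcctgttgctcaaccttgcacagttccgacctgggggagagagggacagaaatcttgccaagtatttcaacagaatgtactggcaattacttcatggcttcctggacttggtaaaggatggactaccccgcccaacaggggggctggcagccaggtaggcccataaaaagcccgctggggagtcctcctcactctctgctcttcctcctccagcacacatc
Havcr1: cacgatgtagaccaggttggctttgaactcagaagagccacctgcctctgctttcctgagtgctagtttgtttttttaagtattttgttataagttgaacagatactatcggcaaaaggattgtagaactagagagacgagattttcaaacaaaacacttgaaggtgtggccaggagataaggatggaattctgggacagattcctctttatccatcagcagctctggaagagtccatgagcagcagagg
Spp1: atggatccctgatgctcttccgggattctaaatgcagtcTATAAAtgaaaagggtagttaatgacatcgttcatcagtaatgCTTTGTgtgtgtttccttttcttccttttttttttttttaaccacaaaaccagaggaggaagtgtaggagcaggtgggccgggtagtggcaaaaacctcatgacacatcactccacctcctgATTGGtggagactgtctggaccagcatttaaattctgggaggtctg
Prom1: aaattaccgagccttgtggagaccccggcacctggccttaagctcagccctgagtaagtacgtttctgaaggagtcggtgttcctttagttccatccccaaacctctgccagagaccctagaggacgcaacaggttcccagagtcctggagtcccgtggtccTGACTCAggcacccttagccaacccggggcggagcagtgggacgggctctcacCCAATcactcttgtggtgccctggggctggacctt
The motifs searched were the cAMP response element TGACGTCA and its shorter form TGACG, which the full element contains, AP-1 (TGANTCA), STAT (TTCNNNGAA), TEAD (GGAATG), SOX (ACAAAG), the TATA box (TATAAA), the CCAAT box (CCAAT) and NF-kB. *Spp1* held TATAAA from base 211 to base 206 before the start, ACAAAG from base 168 to base 163 and CCAAT from base 46 to base 42. Both of the last-named lie on the opposite strand and so are printed as CTTTGT and ATTGG. *Prom1* held the AP-1 letters from base 88 to base 82 and CCAAT from base 35 to base 31. The windows of *Lcn2* and *Havcr1* held none of the motifs, and TGACG and TGACGTCA occurred at the first start of none of the 6 genes. At its second listed start, not shown, *Havcr1* held TGACG from base 241 to base 237. Among 32851 promoters of this length, 1.55% held TGACGTCA, 17.8% TGACG, 6.75% the AP-1 letters, 7.02% the STAT letters, 12.6% GGAATG, 16.5% ACAAAG, 12.4% TATAAA, 33.8% CCAAT and 3.90% NF-kB. A match describes letters in the window and not a bound site, and a missing match says nothing about the factor.

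*Pkd1*, the deleted gene, had 17.7 and 17.2 FPKM in WT, 7.64 and 8.91 in ADPKD, and 4.34 and 3.99 in ADPKD+MMPP, which puts ADPKD at -1.0 relative to WT on the log2 scale (standard error 0.12, adjusted p = 0.00479 from limma). FPKM counts the fragments of a gene relative to its length and to the size of the library, so that levels can be compared between genes. Steps between low values were taken as 1 read each, and from them the depth came to 30.6 to 33.1 M reads in the WT and ADPKD libraries and 11.8 and 10.9 M reads in the ADPKD+MMPP libraries. The share of odd read numbers among these steps was 35.2% to 37.2% in the former and 7.64% and 7.18% in the latter. Low read numbers of the treated libraries were thus mostly even, so their depth and read numbers hold only if a step there is 1 read. Depth, odd read numbers and the treatment cannot be told apart, because the libraries that stand apart are those of 1 whole condition. Within each group the replicates were further apart than counting noise. *Aqp2*, the water channel that defines principal cells of the collecting duct, had 1267 and 1776 FPKM in WT, 1392 and 677 in ADPKD, and 3555 and 3499 in ADPKD+MMPP.

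The injury genes spanned a wide range of levels already in WT. On the FPKM scale their order of mean levels in WT was *Cd24a* at 391 ± 5.18, *Spp1* at 287 ± 4.77, *Vim* at 210 ± 1.87, *Clu* at 173 ± 41.0, *Sox4* at 25.2 ± 2.53, *Vcam1* at 15.4 ± 4.51, *Lcn2* at 11.6 ± 3.69, *Sox9* at 5.15 ± 3.18, *Prom1* at 4.87 ± 0.00452 and *Havcr1* at 0.0280 ± 0.0395 (SD, n = 2 each). The WT libraries of *Vcam1* overlapped those of *Lcn2*, and those of *Sox9* enclosed those of *Prom1*. In ADPKD the order was *Spp1* at 4430 ± 630, *Clu* at 845 ± 5.52, *Lcn2* at 433 ± 249, *Cd24a* at 378 ± 2.65, *Vim* at 265 ± 26.1, *Sox4* at 100.04 ± 40.6, *Havcr1* at 81.5 ± 77.5, *Sox9* at 49.7 ± 21.1, *Vcam1* at 30.4 ± 3.24 and *Prom1* at 26.1 ± 4.57 (SD, n = 2 each). The ADPKD libraries of *Lcn2* overlapped those of *Cd24a* and *Vim*, those of *Havcr1* overlapped *Sox4*, *Sox9*, *Vcam1* and *Prom1*, and those of *Vcam1* overlapped *Prom1*. After MMPP the order was *Clu* at 2090 ± 6.0, *Spp1* at 1284 ± 122, *Cd24a* at 780 ± 11.9, *Lcn2* at 320 ± 8.75, *Sox4* at 158 ± 4.91, *Sox9* at 57.0 ± 1.1, *Vim* at 35.4 ± 0.425, *Vcam1* at 24.2 ± 0.635, *Havcr1* at 13.9 ± 0.300 and *Prom1* at 0.655 ± 0.0415 (SD, n = 2 each), with no overlap between neighbours.

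**Figure D1:**
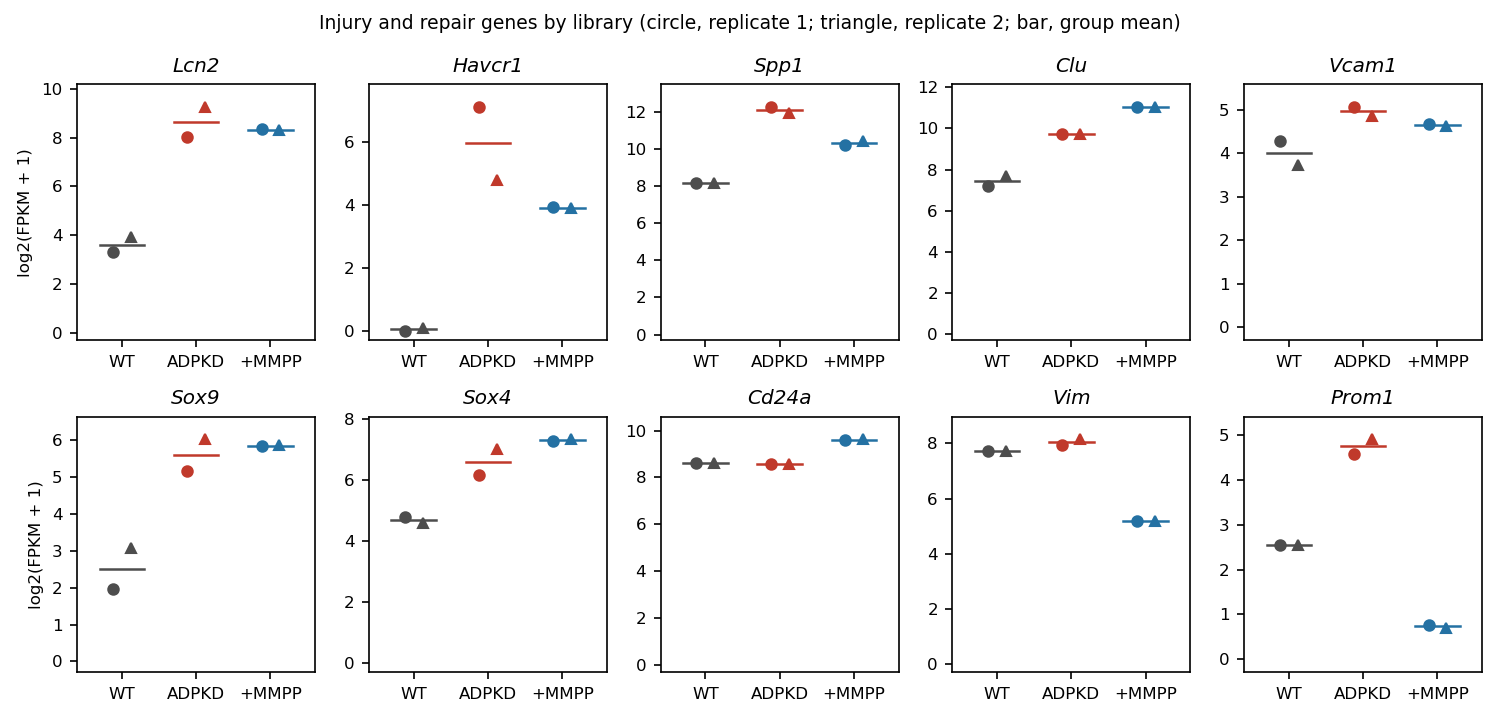
Level of each injury and repair gene as log2(FPKM + 1) in the WT, ADPKD and ADPKD+MMPP libraries, with a circle for replicate 1, a triangle for replicate 2 and a bar for the group mean. *Spp1* stands near 4430 FPKM in ADPKD against 287 in WT, and *Havcr1* differs most between the ADPKD libraries, at 136 and 26.6 FPKM.

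The first comparison asked how loss of *Pkd1* changed these cells. Of the 10 genes, 8 were higher in ADPKD than in WT and 0 were lower, with a fold change of at least 1.5 and an unadjusted P under 0.05 in limma, which is what called means here. Among the 14862 tested genes 26.8% were called, 14.2% higher and 12.5% lower. With adjusted p in place of P the number of injury genes called higher was again 8, where 22.7% of tested genes were called in either direction, and the number lower was 0 at either threshold. For all 10 genes the WT and ADPKD libraries were apart, which held for 67% of tested genes. The median log2 fold change of the 10 genes was 2.25, and that of all tested genes 0.03. All 10 reached 1 FPKM in 2 or more libraries, the condition for testing, *Havcr1* only through the mutant libraries, where it was high. In bulk cells, a change in the number of cells of a type and in RNA per cell cannot be told apart.

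Among the secreted and surface injury proteins, *Havcr1*, *Lcn2*, *Spp1* and *Clu* were all called higher in ADPKD. *Havcr1* (chr11:46735080-46779578), the phagocytic receptor KIM-1, had 0 and 0.0559 FPKM in the WT libraries, 136 and 26.6 in ADPKD, and 14.1 and 13.7 in ADPKD+MMPP. The WT values stand for 0 and 4 reads, so the gene was close to absent in WT and clearly present in each mutant library, with a gap of 5.12 times between the ADPKD replicates. Its log2 fold change in ADPKD was 5.91 (standard error 0.69, adjusted p = 0.00444 from limma), rank 1 from the top. With WT this low the fitted value depends on the pseudocount and was 8.92 with 0.1 in place of 1, 4.75 without ADPKD replicate 1 and 7.06 without ADPKD replicate 2. Rank 1 also rests on ADPKD replicate 1, since without it *Lcn2*, at 5.64, stood above *Havcr1*. *Kap*, an androgen-regulated proximal tubule gene, differed between the ADPKD libraries in the same direction, at 509 and 64.0 FPKM, and its part in the result was not tested.

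*Lcn2* (chr2:32384633-32388252), a secreted protein that binds iron-carrying siderophores, had 8.94 and 14.2 FPKM in WT, 257 and 610 in ADPKD, and 327 and 314 in ADPKD+MMPP. Both ADPKD libraries were far above both WT libraries, replicate 2 by more. The log2 fold change in ADPKD was 5.02 (standard error 0.42, adjusted p = 0.00251 from limma), rank 4 from the top. Neutrophils also make lipocalin, and the 13 neutrophil markers summed to 6.91 and 4.55 FPKM in WT, 4.21 and 19.8 in ADPKD and 13.3 and 11 in ADPKD+MMPP, with 6 of 13 at 1 FPKM in at least 2 libraries. Like *Lcn2*, several of these markers were higher in ADPKD replicate 2 than in replicate 1, among them *S100a9* at 7.71 and 1.16 FPKM, *S100a8* at 3.28 and 0.436, *Ngp* at 2.14 and 0.0742 and *Retnlg* at 2.1 and 0. After MMPP these markers did not move together. *S100a8* was at 5.61 and 5.81 FPKM in ADPKD+MMPP, above both ADPKD libraries. *S100a9*, at 2.596 and 1.756 FPKM in ADPKD+MMPP, lay between the ADPKD libraries. *Csf3r* was lower, with 1.131 and 1.901 FPKM in ADPKD and 0.1408 and 0.1016 in ADPKD+MMPP. *Ly6g* and *Mpo* were at 0 in the WT and treated libraries. In ADPKD they were close to absent too, *Ly6g* at 0.0642 and 0.0662 FPKM and *Mpo* at 0 and 0.00911. The part of neutrophils in the *Lcn2* values was not tested.

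*Spp1* (chr5:104435118-104441050), the matrix protein osteopontin, had 291 and 284 FPKM in WT, 4875 and 3984 in ADPKD, and 1197 and 1370 in ADPKD+MMPP. In both ADPKD libraries it was the most abundant of all listed genes, at rank 1, and it stood at ranks 103 and 112 in WT. Its log2 fold change in ADPKD was 3.93 (standard error 0.15, adjusted p = 0.000613 from limma). *Clu* (chr14:65968483-65981547), which encodes the secreted chaperone clusterin, had 144 and 202 FPKM in WT, 849 and 841 in ADPKD, and 2094 and 2086 in ADPKD+MMPP. The 3 groups were well apart, with the ADPKD replicates nearly equal, and the log2 fold change in ADPKD was 2.30 (standard error 0.18, adjusted p = 0.00241 from limma). Macrophages express *Spp1* too, and the 14 macrophage markers summed to 137 and 121 FPKM in WT, 667 and 866 in ADPKD and 1372 and 1426 in ADPKD+MMPP, with 13 of 14 at 1 FPKM in at least 2 libraries. The median marker was at 5.10 and 6.35 FPKM in WT, 25.1 and 31.9 in ADPKD and 8.03 and 8.81 in ADPKD+MMPP, so sum and median differ in order. *Lyz2* and *C1qa* were highest after MMPP, *Lyz2* with 188 and 224 FPKM in ADPKD and 568 and 565 in ADPKD+MMPP. *Itgam* was highest in ADPKD, with 0.176 and 0.122 FPKM in WT, 1.15 and 2.92 in ADPKD and 0 in both treated libraries. The part of such cells in the *Spp1* values was not tested.

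Both transcription factors were called higher. *Sox9* (chr11:112782224-112787760), a regulator that repairing tubule cells switch on, had 2.90 and 7.41 FPKM in WT, 34.7 and 64.6 in ADPKD, and 56.2 and 57.8 in ADPKD+MMPP. Every mutant library exceeded both WT libraries. Its log2 fold change in ADPKD was 3.08 (standard error 0.43, adjusted p = 0.00643 from limma). *Sox4* (chr13:28948919-28953713), of the same family of HMG-box factors, had 27.0 and 23.4 FPKM in WT, 71.3 and 129 in ADPKD, and 154 and 161 in ADPKD+MMPP. It too was higher in each ADPKD library, with a log2 fold change of 1.89 (standard error 0.27, adjusted p = 0.0069 from limma). Of its exon bases, 54.6% are overlapped on the opposite strand by *Gm26735*, and without stated strand use in counting the reads of both genes cannot be told apart.

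Adhesion and progenitor markers were less uniform. *Prom1* (chr5:43993620-44102032), which encodes CD133, had 4.87 and 4.87 FPKM in WT, 22.9 and 29.4 in ADPKD, and 0.685 and 0.626 in ADPKD+MMPP. The order of the groups was the same in every library, with the treated ones lowest. Its log2 fold change in ADPKD was 2.20 (standard error 0.15, adjusted p = 0.00188 from limma). *Vcam1* (chr3:116109949-116129688), a ligand of leukocyte integrins, had 18.6 and 12.2 FPKM in WT, 32.7 and 28.1 in ADPKD, and 24.7 and 23.8 in ADPKD+MMPP. The treated libraries lay between the others, and the log2 fold change in ADPKD was 0.96 (standard error 0.20, adjusted p = 0.0201 from limma). *Vim* (chr2:13573927-13582826), the intermediate filament vimentin, had 209 and 212 FPKM in WT, 246 and 283 in ADPKD, and 35.1 and 35.7 in ADPKD+MMPP. Its log2 fold change in ADPKD of 0.33 was below the fold threshold (95% interval 0.06 to 0.60, adjusted p = 0.0778 from limma). *Cd24a* (chr10:43578284-43584265), a small glycoprotein of immature epithelium, had 387 and 394 FPKM in WT, 380 and 377 in ADPKD, and 771 and 788 in ADPKD+MMPP. Its WT and ADPKD values lay within a few percent of each other, with a log2 fold change of -0.05 (95% interval -0.30 to 0.21, adjusted p = 0.767 from limma).

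**Figure D2:**
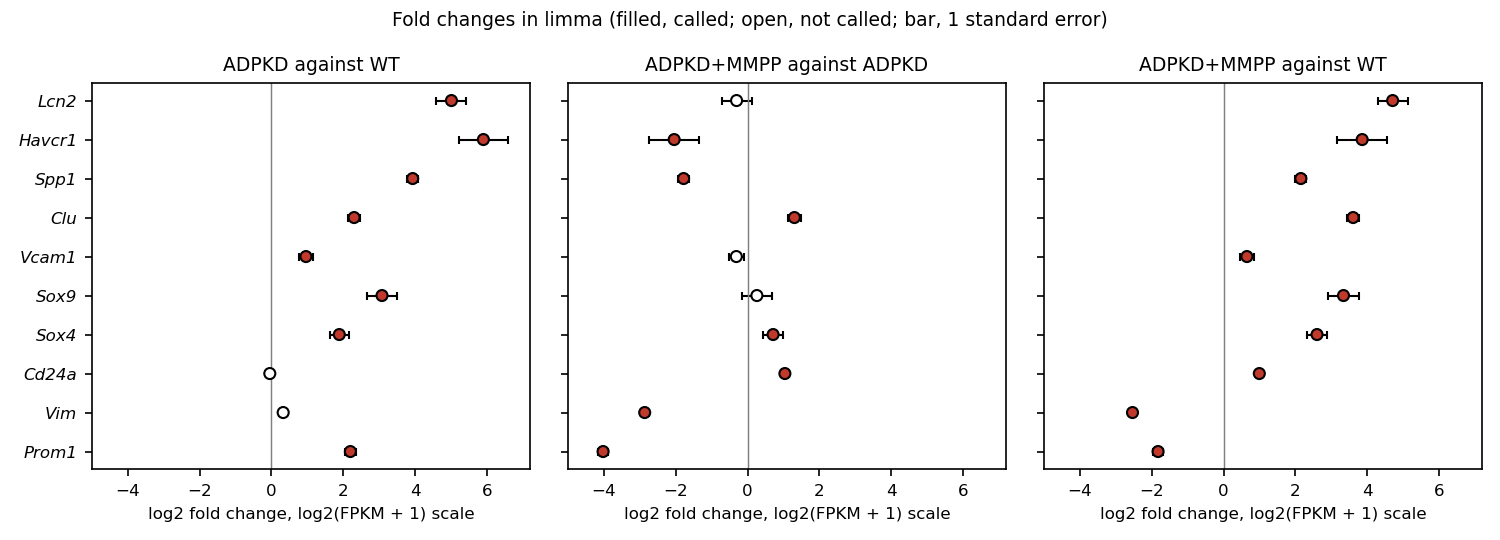
Log2 fold changes of the 10 genes on the log2(FPKM + 1) scale in the 3 comparisons, with filled points for called genes, open points for genes not called and bars of 1 standard error. In ADPKD against WT 8 points are filled, all to the right of 0, while *Cd24a* and *Vim* are open.

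The second comparison asked what MMPP changed in the mutant cells, and it uses the same ADPKD libraries as the first. On the FPKM as deposited the genes went both ways, with *Clu*, *Cd24a* and *Sox4* called higher and *Prom1*, *Vim*, *Havcr1* and *Spp1* called lower, 3 and 4 of the 10. Calls covered 70.9% of all tested genes in this comparison, 27.9% higher and 43% lower, so 7 of 10 is near the background. With adjusted p 2 of the 10 were called higher and 4 lower, beside 70.3% of all tested genes called. The median log2 fold change was -0.31 for the 10 genes and -0.36 for all tested genes, and quantile normalization moved the latter to 0.10 and a common FPKM sum to -0.73. Under quantile normalization 53.9% of called genes were higher and with a common sum 32.1%, against 39.3% as deposited. Libraries did not overlap for 8 of the 10 genes and for 87.8% of all tested genes.

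Gene structure moved with these values. Some exon bases belong to a single annotated transcript and others to several, and each gene was described by the share of the former. When 12375 protein-coding genes were divided by this share into 10 groups, the median log2 fold change after MMPP was -1.68 in the group with the lowest share and 1.1 in the group with the highest, while the medians for ADPKD against WT lay between -0.03 and 0.07. The injury genes are spread over this whole range, from *Spp1* at 4.61%, *Havcr1* at 21.1% and *Prom1* at 35.4%, through *Lcn2* at 52.6% and *Vim* at 58.4%, to *Clu* at 74.2%, *Cd24a* at 78.6%, *Vcam1* at 84.9% and *Sox9* and *Sox4* at 100%. The values were therefore also computed after each library had been centred within 20 bins of this share, and both are given for each gene.

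**Figure D3:**
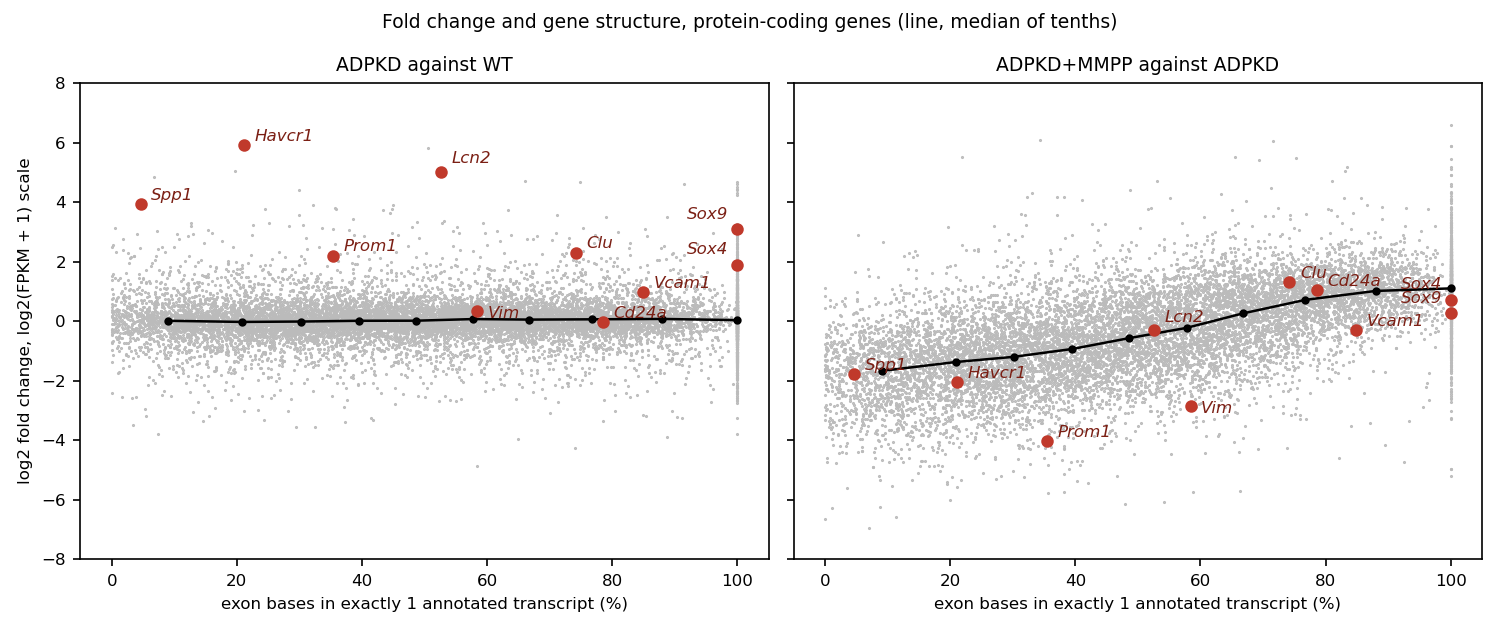
Log2 fold change on the log2(FPKM + 1) scale against the share of exon bases found in 1 transcript alone (%) for 12375 protein-coding genes (grey), with the median of each of 10 groups (line) and the 10 injury genes (red). The line stays near 0 in ADPKD against WT and climbs from -1.68 to 1.1 after MMPP, with *Prom1* and *Vim* far below it.

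*Prom1* and *Vim* were lower after MMPP in both forms. *Prom1* fell by 4.03 on the log2 scale as deposited (standard error 0.15, adjusted p = 1.49e-05 from limma) and was at -2.84 when centred (standard error 0.16, adjusted p = 4.4e-05 from limma), and both treated libraries were also below both WT libraries. *Vim* fell by 2.87 (standard error 0.11, adjusted p = 1.55e-05 from limma) and was at -2.52 when centred (standard error 0.12, adjusted p = 2.98e-05 from limma). Pericytes, fibroblasts and endothelial cells contain much vimentin, and endothelial cells also display VCAM1. The 12 endothelial markers summed to 1455 and 1249 FPKM in WT, 753 and 758 in ADPKD and 371 and 398 in ADPKD+MMPP. All 12 had 1 FPKM in at least 2 libraries. The median endothelial marker was at 122 and 106 FPKM in WT, 43.5 and 40.6 in ADPKD and 5.50 and 5.48 in ADPKD+MMPP. After MMPP it was thus lower by a larger factor than the sum. The 12 fibroblast and pericyte markers summed to 158 and 130, 234 and 259, and 251 and 251 FPKM in the same order, 11 of 12 with 1 FPKM in at least 2 libraries. Their median was at 2.61 and 2.98 FPKM in WT, 21.3 and 28.4 in ADPKD and 1.24 and 0.956 in ADPKD+MMPP, so the median marker was lower after MMPP, like *Vim*, where the sum was not. *Pdgfrb*, a pericyte receptor, had 38.9 and 31.4 FPKM in ADPKD and 1.05 and 0.837 in ADPKD+MMPP, while *Col1a1*, a fibrillar collagen, had 32.3 and 33.4 and then 61.6 and 70.1. Of the exon bases of *Pdgfrb* and *Col1a1*, 2.30% and 91.5% lie in 1 transcript alone. The part of these cells in the values of *Vim* and *Vcam1* was not tested.

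*Clu* was the member that was called higher in both forms. It rose by 1.31 after MMPP (standard error 0.18, adjusted p = 0.000938 from limma) and by 0.89 when centred (standard error 0.18, adjusted p = 0.00494 from limma), and was at 0.27 and not called under quantile normalization. *Cd24a* was at 1.04 (standard error 0.10, adjusted p = 0.000252 from limma) and at 0.23 when centred (adjusted p = 0.0997 from limma), where it was not called. *Sox4* was at 0.71 (standard error 0.27, adjusted p = 0.0526 from limma) and at -0.45 when centred (adjusted p = 0.202 from limma). The ADPKD replicate with less *Sox4* carried part of this difference, which was 0.29 without ADPKD replicate 1 and 1.13 without ADPKD replicate 2. The call of *Sox4* was also lost without ADPKD+MMPP replicate 1 or 2, at 0.74 and 0.68.

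*Spp1* and *Havcr1* were called lower as deposited and not called when centred. *Spp1* was at -1.78 as deposited (standard error 0.15, adjusted p = 0.000147 from limma) and at 0.33 when centred (standard error 0.15, adjusted p = 0.092 from limma). *Spp1* shares 18.8% of its exon bases with *Gm42793* on the same strand, and that gene had 4.15 and 2.89 FPKM in WT, 10.5 and 12.2 in ADPKD, and 55.3 and 57.6 in ADPKD+MMPP. How reads in the shared bases were assigned is not given in the sources used here, and their part in the *Spp1* values was not tested. *Havcr1* was at -2.04 (standard error 0.69, adjusted p = 0.0351 from limma) and at -0.40 when centred (standard error 0.64, adjusted p = 0.605 from limma). The former depended on the uneven ADPKD libraries, at -0.89 without ADPKD replicate 1 and -3.20 without ADPKD replicate 2, and it was no longer called without either treated library, at -2.06 without replicate 1 and -2.02 without replicate 2. Of the 50-base stretches of *Havcr1*, 4.60% also occur in *Timd2* or *Gm4926*.

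*Lcn2*, *Sox9* and *Vcam1* were not called after MMPP. *Lcn2* was at -0.31 (95% interval -1.34 to 0.73, adjusted p = 0.527 from limma), with the treated libraries between the ADPKD ones, and at 0.34 when centred. Without ADPKD replicate 1 it was at -0.93 and called, and without ADPKD replicate 2 at 0.32. *Sox9* was at 0.26 (95% interval -0.79 to 1.31, adjusted p = 0.594 from limma), at -0.90 when centred, at -0.042 with a common FPKM sum and at -0.0059 under quantile normalization, and its treated libraries also lay between the ADPKD ones. *Vcam1* was at -0.31 (95% interval -0.81 to 0.19, adjusted p = 0.201 from limma), and at -1.42 and called when centred (standard error 0.19, adjusted p = 0.000912 from limma). Intervals of this width leave room for differences of over 1.5-fold for all 3 genes. Measured against the median of all tested genes as deposited, *Lcn2* and *Vcam1* both stood at 0.05 and *Sox9* at 0.62.

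**Figure D4:**
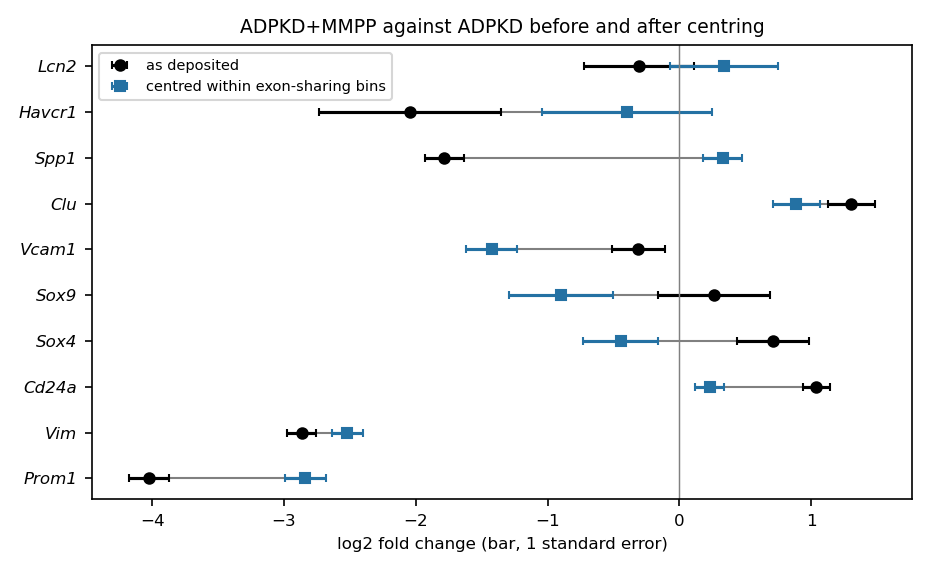
Log2 fold change of the 10 genes in ADPKD+MMPP against ADPKD as deposited (black circles) and after centring within exon-sharing bins (blue squares), with bars of 1 standard error. *Spp1* moves from -1.78 to 0.33 and *Sox4* from 0.71 to -0.45, while *Prom1* and *Vim* stay below -2.

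Set against WT, the treated libraries, which were also part of the previous comparison, had 8 genes called higher and 2 lower, and for all 10 the libraries were apart. All tested genes were called in 73.9%, with 30.1% higher, 43.8% lower and 73.4% by adjusted p, and did not overlap in 91.9%. *Lcn2* was at 4.71, *Havcr1* at 3.86, *Clu* at 3.61, *Sox9* at 3.34, *Sox4* at 2.6 and *Spp1* at 2.15 (adjusted p between 2.16e-05 and 0.00275 from limma). These 6 genes were called higher than in WT also when centred, at 5.35, 5.47, 3.15, 2.04, 1.30 and 4.13 in the same order. In the centred fit 57.2% of all called genes were higher than in WT, and the median of all tested genes was 0.17. *Cd24a* at 0.99 and *Vcam1* at 0.65 lost their calls when centred, at 0.17 and -0.50, and *Vcam1* was not called without WT replicate 2, at 0.36, or without ADPKD+MMPP replicate 1 or 2, at 0.62 and 0.67. *Vim* at -2.54 and *Prom1* at -1.83 were lower than in WT, at -2.27 and -0.62 when centred.

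Sums over markers of other cell types also differed between the groups. All marker sums and medians here and above are of FPKM as deposited and were not centred by exon sharing. In the treated libraries, cell type and gene structure therefore cannot be told apart in them. The 15 proximal tubule markers summed to 772 and 563 FPKM in WT, 1920 and 1396 in ADPKD and 22635 and 21472 in ADPKD+MMPP. All 15 had 1 FPKM in at least 2 libraries, and *Kap* and *Gpx3* made up most of the treated sums. The median marker was at 4.71 and 2.32, 7.71 and 1.37, and 68.7 and 68.7 FPKM. Not all markers rose after MMPP. *Hnf4a* had 2.36 and 2.32 FPKM in WT, 7.28 and 5.37 in ADPKD and 0.0351 and 0 in ADPKD+MMPP. *Havcr1*, a proximal tubule gene, was lower in the treated libraries than in either ADPKD library. The 14 principal cell markers summed to 2259 and 2946, 2679 and 1110, and 5655 and 5678 FPKM in the same order, and the 11 intercalated cell markers to 361 and 376, 98.6 and 41.2, and 265 and 272. The median principal cell marker was at 44.3 and 44.4 FPKM in WT, 42.3 and 20.6 in ADPKD and 44.1 and 44.4 in ADPKD+MMPP. After MMPP this median was thus near WT, where the sum was higher. The 9 thick limb and distal tubule markers summed to 1474 and 574, 632 and 210, and 242 and 241 FPKM, and the 8 podocyte and parietal cell markers to 997 and 1373, 280 and 150, and 134 and 138, with *Ptpro* at 0 in both treated libraries. The median thick limb and distal tubule marker was at 12.3 and 10.1, 11.2 and 8.19, and 15.8 and 17.3 FPKM. This median was highest after MMPP, where the sum was not. The 20 genes of the dissociation response, which cells switch on during tissue digestion, summed to 15825 and 16268 FPKM in WT. Their sums were 9737 and 7491 in ADPKD and 16051 and 16235 in ADPKD+MMPP. The median gene of this list was at 653 and 607 FPKM in WT, 376 and 306 in ADPKD and 370 and 372 in ADPKD+MMPP. After MMPP the median thus stayed near ADPKD, where the sum was near WT. The part of these shifts in the values of the injury genes was not tested.

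**Figure D5:**
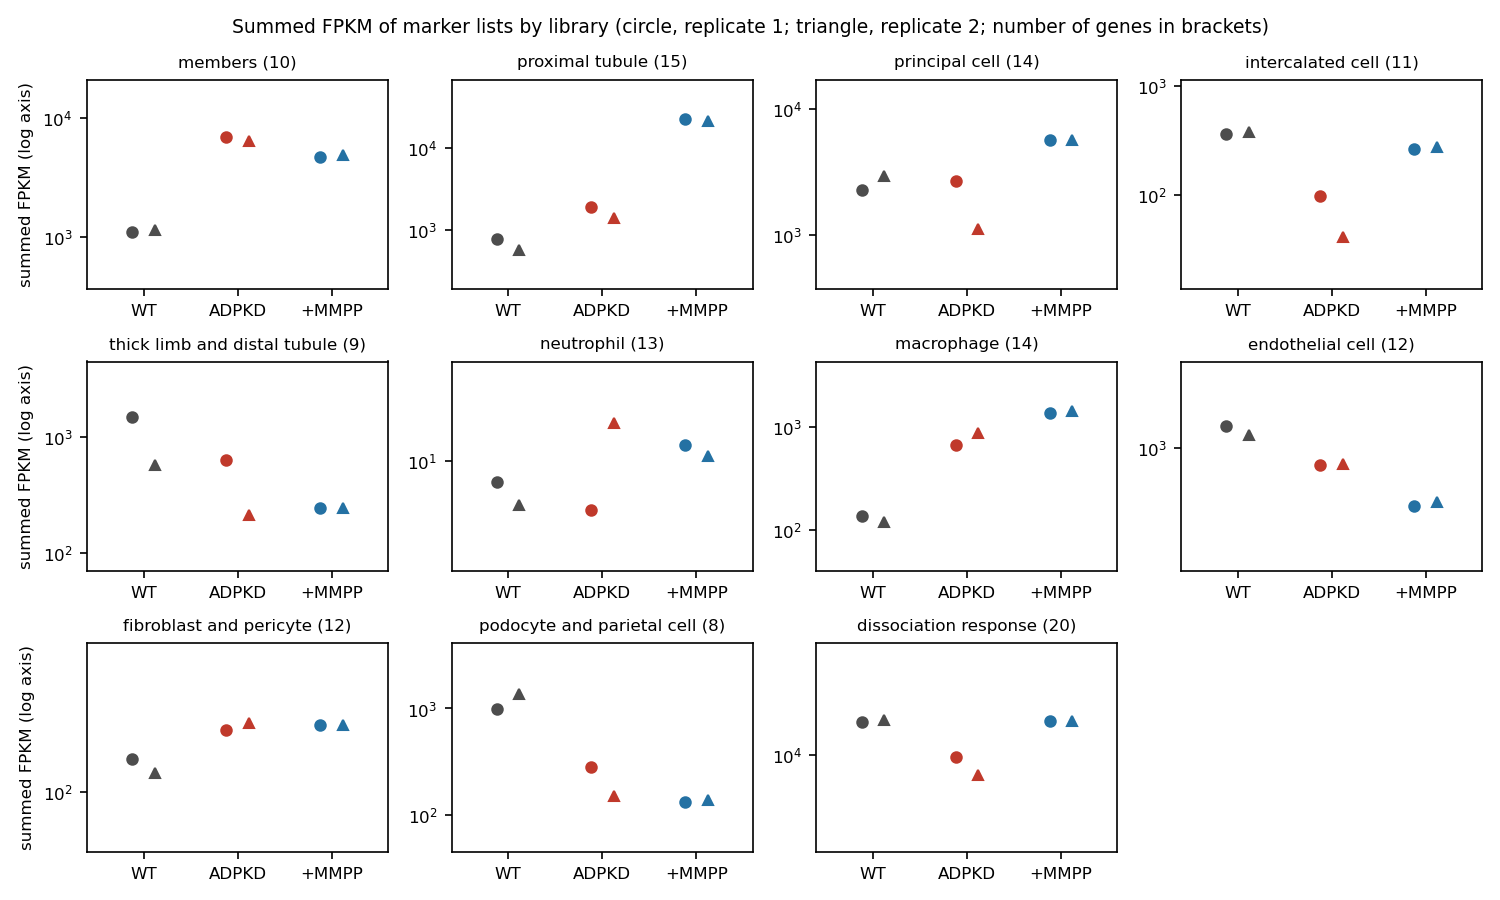
Summed FPKM (log axis) of the 10 injury genes and of each marker list in the WT, ADPKD and ADPKD+MMPP libraries, with a circle for replicate 1 and a triangle for replicate 2. Proximal tubule markers reach 22635 and 21472 FPKM after MMPP, and the injury genes sum to between 4674 and 6906 FPKM in the mutant libraries against 1093 and 1154 in WT.

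A wider list of 70 injury and repair genes, of which 66 were tested, gave the surroundings of the 10. It was written with earlier results of these data known, so its share of called genes is a description and not independent support. In ADPKD against WT 39 were called higher and 3 lower, or 63.6% of the list beside 26.8% of all tested genes, with a median log2 fold change of 1.07 beside 0.03. The highest changes were those of *Krt19* at 5.80 and *Krt20* at 4.61, keratins of simple epithelium, *Timp1* at 4.83, an inhibitor of matrix metalloproteinases, and *Sprr2f* at 4.41, an envelope protein of stressed epithelium. *Krt19* had 1.73 and 1.93 FPKM in WT, 74.1 and 330.05 in ADPKD and 267 and 264 in ADPKD+MMPP. It was low in WT, and like *Lcn2* it was higher in the second ADPKD library. In WT *Timp1* had 0.516 and 0.982 FPKM, *Krt20* 0.628 and 1.86, and *Sprr2f* 0.430 and 1.49. *Timp1*, *Krt20* and *Sprr2f* met the condition for testing only through the mutant libraries, where they were high. Others of the 39, among them *Fgg* at 0.359 and 0.185 in WT, share this limit. The 3 genes called lower were *Socs3* at -1.71, a feedback inhibitor of cytokine signalling that is also on the dissociation list, *Tm4sf1* at -0.91, a membrane protein that endothelial cells express strongly, and *Birc3* at -0.68, an inhibitor of apoptosis.

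After MMPP the wider list had 14 genes called higher and 28 lower, or 63.6% beside 70.9% of all tested genes, with a median of -0.40 beside -0.36. As deposited, the list was thus near the background. When centred, 11 of its genes were higher and 22 lower, while 57.9% of all called genes were higher. The highest were *Sprr2f* at 2.24, the complement component *C3* at 1.64, *Dcdc2a* at 1.35 and the proliferation marker *Mki67* at 1.31. Of their exon bases, 100%, 70.4%, 82.3% and 94.3% lie in 1 transcript alone. The lowest were *Gdf15* at -5.45, a stress cytokine, *Tm4sf1* at -5.33, the growth regulator *Myc* at -5.33 and the NF-kB subunit *Relb* at -4.47, where that share was 42.1%, 21.8%, 13.9% and 11.6%. *Gdf15* was at 4.48 and 5.34 FPKM in ADPKD+MMPP, with 111 as its lowest value elsewhere, and *Myc* had 29.9 and 35.8 FPKM in WT, 75.5 and 91.5 in ADPKD and 0.873 and 1.35 in ADPKD+MMPP. Both genes were far lower in the treated libraries than in any other. Against WT, 30 genes of the list were higher and 19 lower after MMPP, or 74.2% beside the background of 73.9%, with a median of 0.52 beside -0.36.

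Some genes ran closely parallel to single members over the 6 libraries, measured by the root mean square difference of centred log2(FPKM + 1) profiles among 8715 protein-coding genes. Closest to *Lcn2* were *Krt20* at 0.33, *Cxcl14* at 0.46 and *Fgg* at 0.60, and closest to *Spp1* were *Ccl2* at 0.28, *S100a14* at 0.35 and *Hsd11b1* at 0.37. *Havcr1* had no near neighbour, with *Ccl7* at 0.90, *Cxcl14* at 0.91 and *Spp1* at 1.05. For *Clu* they were *Krt8* at 0.18, *Galnt3* at 0.20 and *Cldn3* at 0.23, and for *Sox9* they were *Akr1b8* at 0.23, *Cxcl5* at 0.28 and *Loxl1* at 0.32. *Sox4* ran with *Ctsc* at 0.07, *Cd14* at 0.13 and *B4galt5* at 0.15, and *Prom1* with *C5ar1* at 0.15, *Golm1* at 0.17 and *Anxa1* at 0.21. *Cd24a* was followed by *Gpr107*, *Dusp11* and *Map2k4* within 0.04, and *Vim* by *Ewsr1*, *Srrm2* and *Tnip2* within 0.06. The libraries are shared by all these profiles, and those of the treated group also differ by gene structure, so a small difference describes the profile only.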

How the data were processed

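The data are 6 RNA-seq libraries of DBA-positive kidney cells, 2 each from WT, ADPKD and ADPKD+MMPP. The authors aligned reads to GRCm38/mm10 with HISAT2 2.1.0 and counted them with featureCounts 1.6.0, as the submitters' processing notes also list, used DESeq2 for their own comparisons, and deposited FPKM per gene symbol for each library. The annotation release and the way FPKM was made from counts are not given in the sources used here. FPKM are not counts, so no count model was run, and differences in how libraries were made pass straight into the values.

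Of the 55367 symbols, 53186 matched a single GENCODE vM21 gene, the source of coordinates, exon bases and transcripts. FPKM times exon length gave depth and read numbers, where a value within 0.02 of an integer was taken as whole, up to 20 reads. Counting error was not modelled per gene.

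Genes reaching 1 FPKM in 2 or more libraries were fitted on log2(FPKM + 1), a scale that understates changes of low genes, with limma 3.58.1 in R 4.3.3 (trend, 1 fit over 6 libraries), and p-values were adjusted by Benjamini-Hochberg over all tested genes. The fit was tested on simulated data. Calls needed a fold change of 1.5 or more and P under 0.05, the thresholds of the study. The members and lists were chosen with earlier results of these data known. Of the wider list, the 4 highest and 4 lowest called genes without overlap in each of 2 comparisons are named. Of the marker lists, at most 3 abundant genes, defining markers at 0 and genes that differ from their list or between replicates are named. For each member the 3 most similar profiles are given, where its group means spanned at least 1 on the log2 scale. Other settings were a pseudocount of 0.1, no filter or FPKM of at least 5, common-sum, TMM and quantile scaling, no trend, the compared groups alone, adjusted p, a fold change of 2, a replicate block, centring within 20 exon-sharing bins, and leaving out each library.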

Additional observations from a re-analysis of the deposited data

How the results depend on the processing

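For the 10 genes, the direction and the call in ADPKD against WT were kept under all alternatives except a fold change of at least 2, where *Vcam1* was no longer called. After MMPP more values moved, and the cause was not tested. Against ADPKD, *Sox9* turned to -0.042 with a common FPKM sum, -0.0059 under quantile normalization, -0.90 when centred within exon-sharing bins and -0.90 over 1-transcript genes, an alternative chosen after seeing the data, where *Sox4* was at -0.45. Centring turned *Lcn2* to 0.34, *Spp1* to 0.33, *Sox4* to -0.45 and, against WT, *Vcam1* to -0.50. Leaving out each library in turn gave -0.93 to 0.32 for *Lcn2* and -0.18 to 0.70 for *Sox9*, the ends being those without an ADPKD library. The 3 members called higher against ADPKD became 1 under quantile normalization and 1 when centred.

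With a fold change of at least 2, called genes in ADPKD against WT went from 2115 to 1020 higher and from 1862 to 936 lower, genes of the wider injury list from 3 to 1 lower, and those of that list higher after MMPP against ADPKD from 14 to 8. With FPKM of at least 5, which leaves fewer genes, those lower went from 1862, 6391 and 6505 to 1173, 4009 and 4061 in the 3 comparisons. When centred, over protein-coding genes only, those lower after MMPP went to 3034 against ADPKD and 3318 against WT.

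Replicate numbers are shared between the groups, but the replicate differences correlated at 0.13 (WT and ADPKD), 0.01 (ADPKD and ADPKD+MMPP) and -0.01 (WT and ADPKD+MMPP), so the numbers were not taken as pairs. With a replicate block, members called were 8 higher in ADPKD against WT, 3 higher and 4 lower after MMPP against ADPKD, and 8 higher and 2 lower after MMPP against WT, and no call of a member changed.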
